A study of Mus musculus with 4 samples.

Results

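The insulin-like growth factor (IGF) axis was followed by source cell and by myogenic state in regenerating muscle. Its members were taken by symbol: the ligands Igf1 and Igf2, the receptors Igf1r and Igf2r, and the binding proteins Igfbp2, Igfbp3, Igfbp4, Igfbp5, Igfbp6 and Igfbp7. All 10 were among the 25827 genes listed, and all 10 passed the filter on low counts in every comparison. The values are unique molecular identifiers (UMIs, 1 per captured RNA molecule) from 4 droplet libraries of cells sorted from tibialis anterior (TA) muscle on day 6 after injury with cardiotoxin (CTX), a snake toxin that destroys muscle fibres. Mice were 12 weeks old and male, and each library held pooled cells of 3 mice. The 2 control libraries were Pax7Cre, and the 2 others were miR-501 KO (Pax7CremiR-501fl/Y), written miR-501KO. Both replicates numbered 1 belong to run 1 and both numbered 2 to run 2, which the study describes as independent experiments. Cre stood under the Pax7 promoter, so it was active in Pax7-expressing cells and their descendants, and the control mice carried it too. The loxP sites flanked the miR-501 precursor, which lies in an intron of Clcn5 on the X chromosome. Cells were gated as CD45-, CD31-, Sca1- and α7-integrin+ to enrich myogenic progenitors (MPs), so leukocytes, endothelial cells and most fibroblasts were meant to be left out.

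IGF1 and IGF2 are small secreted hormones that drive growth, survival and differentiation of muscle cells through the receptor tyrosine kinase encoded by Igf1r. Igf2r encodes the mannose-6-phosphate receptor, which takes up IGF2 and delivers it to lysosomes for breakdown. The binding proteins hold the ligands in the extracellular space, where they prolong ligand life or keep it from the receptor, and proteases release it again.

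After filtering, 10450 cells remained, 1829 to 3439 per library, with a median of 25254 to 34579 UMIs per cell. Clusters were built without the 10 members and were named from marker lists as quiescent-like (2236 cells), cycling-like (2507), committed-like (1389), macrophage-like (345), mural-like (264), Schwann-like (195) and fibroblast and tenocyte-like (145). The remaining 3369 cells, 32.2%, carried no name. The sort was not pure, since the 13 macrophage markers summed to 38159 to 46833 CPM (UMIs per 1000000 UMIs of a sum) in the macrophage-like cells. They summed to 17.5 to 43.7 CPM in the MP classes. The library miR-501KO replicate 1 stood apart: 851 of its cells (30.04%) lay in clusters that held over 90% of their cells from 1 library, against 0 to 3 cells in each of the others. These clusters are unnamed except 1 of 53 cycling-like cells, and values are given with and without them where they move a result. Cell barcodes shared by 2 libraries numbered 0 to 3 per pair. Clcn5, the host gene of miR-501, stood in quiescent-like cells at 215 and 243 in the Pax7Cre libraries and 269 and 222 in the miR-501KO libraries (CPM); counts from its 3′ end lie outside the floxed part and do not check the deletion.

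Both mature arms of miR-501 are shown, because the deletion was designed to remove the precursor of both, with the seed (bases 2 to 8) in capitals. From earlier sequencing, the study states that activated MPs do not express the 5p arm, and it refers to the 3p arm. Sequences are from RefSeq, build GRCm38.p6, and the arms lie on the minus strand at chrX:7241270-7241291 (3p) and chrX:7241307-7241328 (5p).
mmu-miR-501-3p: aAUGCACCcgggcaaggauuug
mmu-miR-501-5p: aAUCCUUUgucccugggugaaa
The letters that pair with the 3p seed, GGTGCAT, were found once among the longest annotated 3′UTRs of the 10 members, in Igfbp5, at base 1193 of 4448. The letters that pair with the 5p seed, AAAGGAT, were found once, in Igf1, at base 3828 of 6311. Each is shown with 10 bases on either side, the match in capitals.
Igfbp5 3′UTR: agcacccaagGGTGCATcaagtgcata
Igf1 3′UTR: gttcagagacAAAGGATggaaaagttt
Of 21669 genes with a 3′UTR, 5.92% held the 3p letters and 11.1% the 5p letters. A match is a description of these letters and not a measured target.

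Promoters (300 bases, from 250 before to 50 after the start) are shown for 3 members whose levels fell most from the early to the late cluster of committed-like cells. Capitals mark the E-box letters CAGCTG and CAGGTG, which myogenic factors can bind, and TGGGAA, the core letters of RBPJ sites, on either strand. The Igf1 promoter (chr10:87860861-87861160, plus strand) held CAGCTG at base 94 and TGGGAA at base 160. The Igfbp3 promoter (chr11:7213874-7214173, minus strand) held CAGGTG at base 79. The Igfbp5 promoter (chr1:72874816-72875115, minus strand) held none of these letters nor TATAAA.
Igf1 promoter: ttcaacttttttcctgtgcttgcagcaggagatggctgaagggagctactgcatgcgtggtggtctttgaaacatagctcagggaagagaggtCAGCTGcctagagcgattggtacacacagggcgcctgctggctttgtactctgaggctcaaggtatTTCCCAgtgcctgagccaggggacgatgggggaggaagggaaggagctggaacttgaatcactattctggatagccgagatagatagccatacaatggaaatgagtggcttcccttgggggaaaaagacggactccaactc
Igfbp3 promoter: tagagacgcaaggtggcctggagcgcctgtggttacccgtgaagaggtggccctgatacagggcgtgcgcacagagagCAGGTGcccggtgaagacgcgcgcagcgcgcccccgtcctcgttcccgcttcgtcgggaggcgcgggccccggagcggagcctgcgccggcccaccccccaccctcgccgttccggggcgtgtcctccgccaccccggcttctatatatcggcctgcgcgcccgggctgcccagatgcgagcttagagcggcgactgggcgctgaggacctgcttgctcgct
Igfbp5 promoter: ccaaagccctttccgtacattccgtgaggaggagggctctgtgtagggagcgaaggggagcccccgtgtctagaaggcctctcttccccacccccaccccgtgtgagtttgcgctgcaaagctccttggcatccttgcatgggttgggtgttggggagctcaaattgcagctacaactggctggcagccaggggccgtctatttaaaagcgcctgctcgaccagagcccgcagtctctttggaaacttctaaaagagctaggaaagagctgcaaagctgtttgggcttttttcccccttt
Among 32851 promoters of the same length, 16.3% held CAGCTG, 20.2% CAGGTG, 25.6% TGGGAA and 13.6% TATAAA. Igfbp4 and Igfbp6 were the members with TATAAA in this window.

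The ligands peaked in different cells, although the MP classes held both. Igf1 was highest outside the myogenic lineage. In fibroblast and tenocyte-like cells it stood at 291 and 790.2 in the Pax7Cre libraries and 801 and 308 in the miR-501KO libraries (CPM). In macrophage-like cells it stood at 240.3 and 289 in the Pax7Cre libraries and 198 and 232 in the miR-501KO libraries. Every one of these 8 values lay above every value in the MP classes, where quiescent-like cells had 50.8 and 80.0 in the Pax7Cre libraries and 56.1 and 77.8 in the miR-501KO libraries. In the quiescent-like cells both libraries of run 2 lay above both of run 1, in either genotype. Cycling-like cells had 25.5 to 42.1 CPM and committed-like cells 44.4 to 64.9 CPM over the 4 libraries. Mural-like cells (4.0 to 13.4 CPM) and Schwann-like cells (1.40 to 10.9 CPM) held the least. In edgeR's quasi-likelihood test on sums per library and class, with the library as a term, Igf1 was higher in macrophage-like cells than in the mean of the 3 MP classes, by 2.60 ± 0.08 (log2 fold change ± SE; 6.04-fold; adjusted p = 8.1e-21), and it was so in 4 of 4 libraries. In mural-like cells it was lower by the same measure (-2.78 ± 0.21, adjusted p = 7.3e-12).

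Igf2 was highest in MPs by its means. Quiescent-like cells stood at 35.0 and 30.2 in the Pax7Cre libraries and 52.2 and 24.9 in the miR-501KO libraries (CPM), and committed-like cells at 21.1 and 23.3 in the Pax7Cre libraries and 39.9 and 16.7 in the miR-501KO libraries. Cycling-like cells had 10.7 to 24.7 CPM. Fibroblast and tenocyte-like cells had 2.65 to 11.8 CPM, macrophage-like cells 2.28 to 8.79, mural-like cells 1.29 to 6.72 and Schwann-like cells 0 to 4.92, where 2 libraries had no UMI. Against the MP classes Igf2 was lower in 3 of these classes, by log2 differences of -2.05 ± 0.21 in macrophage-like, -3.08 ± 0.26 in mural-like and -3.92 ± 0.39 in Schwann-like cells (adjusted p from 6.6e-11 to 2.7e-09). In fibroblast and tenocyte-like cells the planned test, which had 1 sum of 97 cells, gave -0.55 ± 0.39 (adjusted p = 0.36), and all 4 sums gave -1.49 (adjusted p = 1.0e-04). The highest Igf2 value of every MP class was that of miR-501KO replicate 1, and the lowest that of miR-501KO replicate 2.

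**Figure D1:**
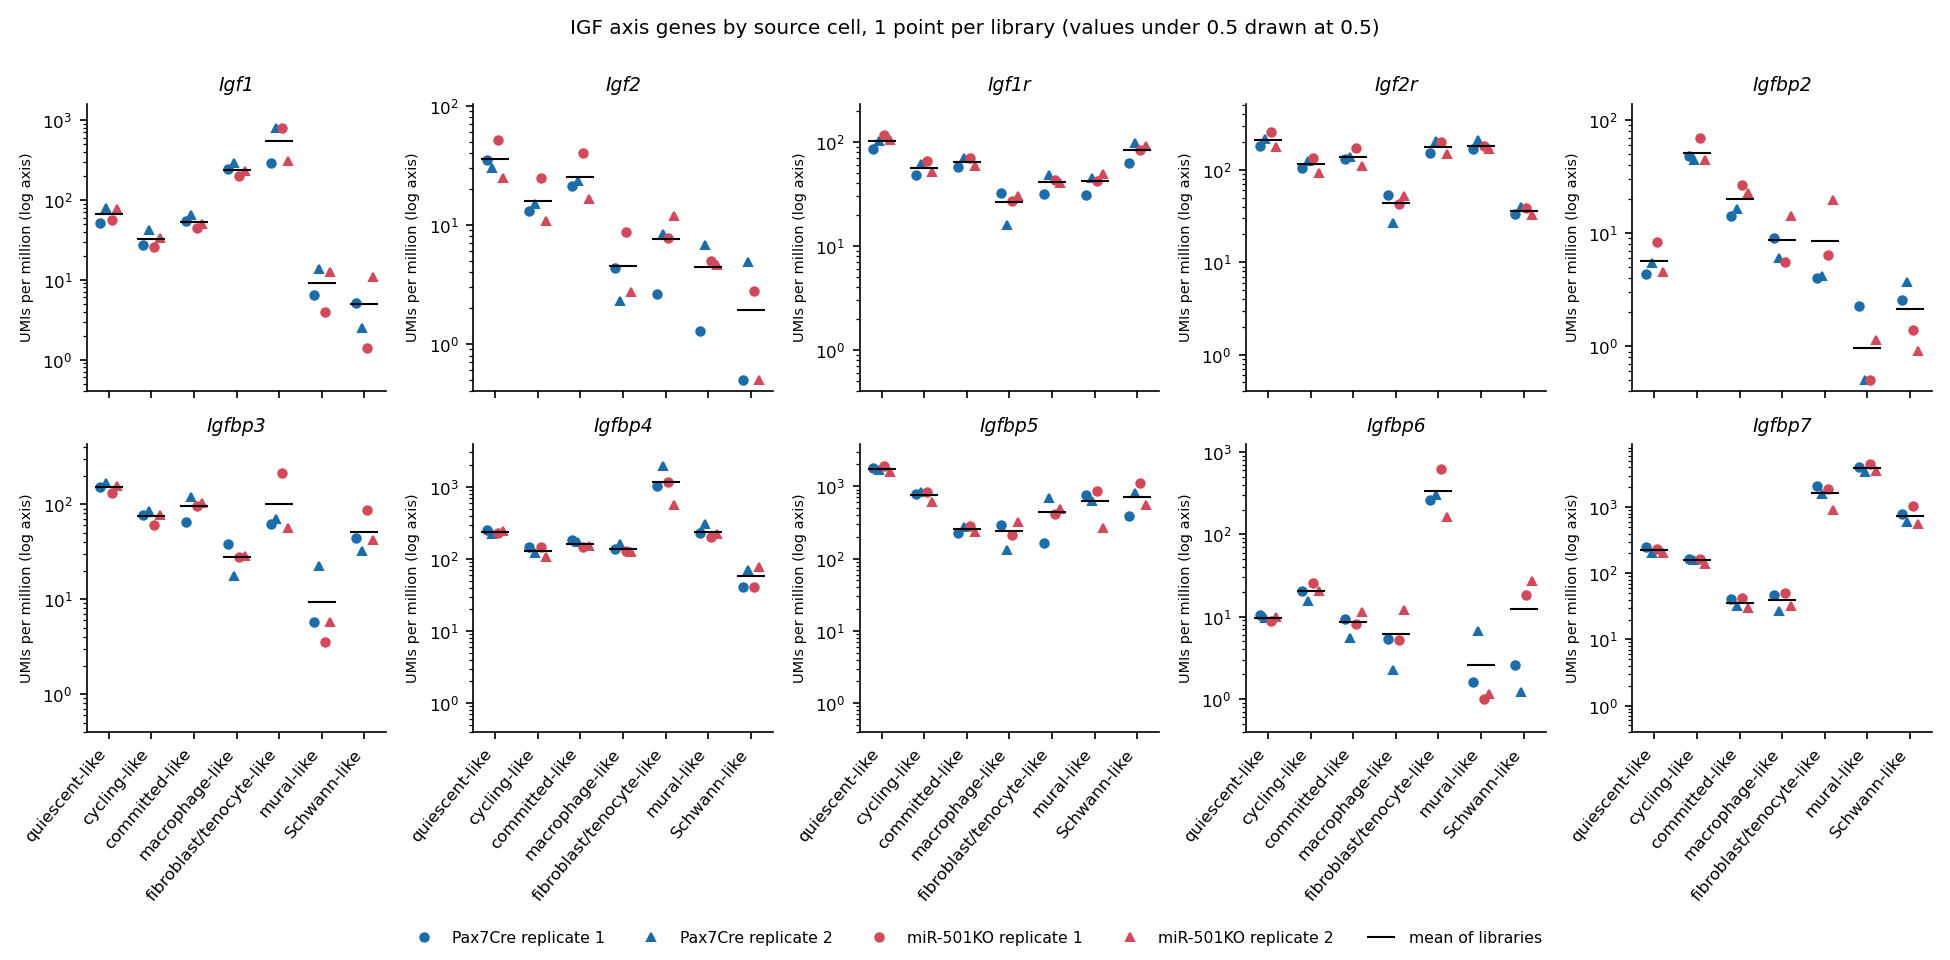
Level of each of the 10 members (CPM, log axis) in 7 named classes of cells, with 1 point per library (circles replicate 1, triangles replicate 2) and a bar at the mean of the 4 libraries. Igf1 was highest in fibroblast and tenocyte-like and macrophage-like cells, Igf2 in quiescent-like cells, and Igfbp7 in mural-like cells.

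The receptors were both highest in quiescent-like cells by their means, with neighbours that overlapped. Igf1r stood there at 85.0 and 102 in the Pax7Cre libraries and 117 and 104 in the miR-501KO libraries (CPM), and in Schwann-like cells at 62.2 to 97.1 CPM. Committed-like cells (57.9 to 70.3) and cycling-like cells (47.9 to 65.3) overlapped each other, and macrophage-like cells were lowest (16.0 to 32.4 CPM). Igf2r stood at 183 and 214 in the Pax7Cre libraries and 261 and 179 in the miR-501KO libraries in quiescent-like cells. Its levels in mural-like cells (169 to 211 CPM) and fibroblast and tenocyte-like cells (148 to 204 CPM) overlapped that range. Macrophage-like (26.6 to 54.1) and Schwann-like cells (32.6 to 39.3) held the least. Against the MP classes, Schwann-like cells had less Igf2r (-2.40 ± 0.15 log2, adjusted p = 2.0e-13), while their Igf1r differed by -0.11 ± 0.11, with a 95% interval of -0.35 to 0.12 and an adjusted p of 0.45.

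The binding proteins divided by source cell. Among the named classes Igfbp5, the binding protein long known from differentiating myoblasts and bone, was highest in quiescent-like cells. It stood there at 1760.2 and 1698 in the Pax7Cre libraries and 1908 and 1593 in the miR-501KO libraries (CPM). No other named class reached this range: cycling-like cells had 602 to 826, Schwann-like cells 388 to 1117, mural-like cells 268 to 863, and committed-like cells 224 to 286 CPM. The unnamed cluster led by Spp1, described below, lay above the quiescent-like value in each library. Igfbp3, the main carrier of IGFs in blood, was also highest in quiescent-like cells by its mean, at 153, 169, 131 and 155 (CPM in Pax7Cre replicates 1 and 2 and miR-501KO replicates 1 and 2, the order used for all such runs of values), although 1 fibroblast and tenocyte-like sum of 18 cells, from miR-501KO replicate 1, reached 214. Igfbp2 peaked in cycling-like cells, at 48.3, 44.2, 69.6 and 44.1, with 65.6 in miR-501KO replicate 1 once its single-library cluster was removed. Committed-like cells had 14.0, 16.3, 26.7 and 22.6 and quiescent-like cells 4.31, 5.48, 8.42 and 4.56, and the 3 ranges were apart.

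Igfbp4, Igfbp6 and Igfbp7 peaked outside the myogenic lineage. Igfbp7, which binds IGFs weakly and lies in vascular basement membranes, stood at 4013, 3463, 4491 and 3495 CPM in mural-like cells, the pericytes and smooth muscle cells of vessels. It was lower, in this order, in fibroblast and tenocyte-like (901 to 2062), Schwann-like (553 to 1055), quiescent-like (204 to 249.7), cycling-like (137 to 166) and committed-like cells (29.5 to 41.9), the last of which overlapped macrophage-like cells (26.6 to 51.1). An unnamed cluster of 21 cells led by the endothelial genes Cdh5 and Pecam1 held more still, 10406, 9225, 6973 and 6452 CPM. These values rest on 3, 4, 4 and 10 cells, and the cluster stayed unnamed because mural markers were raised too. Igfbp7 was higher in mural-like cells than in the MP classes by 5.0 ± 0.08 (32.0-fold, adjusted p = 1.2e-26) and in Schwann-like cells by 2.39 ± 0.08 (adjusted p = 5.5e-19). Igfbp4, an inhibitor of IGF action, reached 1034, 1950.2, 1179 and 556 CPM in fibroblast and tenocyte-like cells, against 220.4 to 249 in quiescent-like cells. Igfbp6, which prefers IGF2 as its ligand, reached 261, 301, 621 and 161 CPM there, against 15.6 to 25.5 in cycling-like cells, the MP class with the most.

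Of the 10 members, 8 were called (adjusted p under 0.05) between macrophage-like cells and the MP classes, 1 higher and 7 lower, where 63.4% of all genes tested were called, 33.1% higher and 30.3% lower. For mural-like cells it was 2 higher and 6 lower (background 60.3% called, 31.6% higher and 28.8% lower) and for Schwann-like cells 1 higher and 6 lower (background 52.3% called, 27.2% higher and 25.1% lower). In mural-like cells the second higher member was Igfbp4 (0.29 ± 0.11, adjusted p = 0.019), a call that was lost without Pax7Cre replicate 2 (0.20, adjusted p = 0.10). In macrophage-like cells the members that did not pass were Igfbp4 (-0.04 ± 0.11, 95% interval -0.26 to 0.18) and Igfbp6 (-0.70 ± 0.31, 95% interval -1.35 to -0.06). The median log2 difference of the members was -1.13, -1.88 and -1.63 in these comparisons, against -0.05, -0.03 and -0.02 over all genes. The fibroblast and tenocyte-like class had 19, 11, 18 and 97 cells in the 4 libraries, so the planned test used the sum of miR-501KO replicate 2 only, assumed to vary like the other classes: 4 members were higher and 1 lower (background 21.9% called, 13.7% higher and 8.23% lower). With all 4 sums, a choice made after the data were seen, the differences were 3.39 for Igf1, 2.67 for Igfbp4, 4.64 for Igfbp6 and 3.81 for Igfbp7 (log2). They were 2.56 ± 0.16, 1.72 ± 0.17, 3.46 ± 0.28 and 3.24 ± 0.14 in the planned test, and the adjusted p was below 0.05 in both for these 4 genes.

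Across myogenic states the ligands, both receptors and most binding proteins were lowest in cycling-like or committed-like cells. From quiescent-like to cycling-like cells, 8 members fell and 2 rose in CPM (background 59.9% called, 29.1% higher and 30.8% lower). CPM is a share of all UMIs, and depth differed between states. Medians were 22790 and 24350 UMIs per cell in the quiescent-like clusters and 40237 to 47763 in the cycling-like clusters shared by all libraries. The committed-like clusters had 34340 and 50690. A fall in CPM need not be a fall in UMIs per cell, which were not compared. Both ligands fell, with log2 fold changes of -1.0 ± 0.09 in Igf1 and -1.14 ± 0.10 in Igf2, and so did both receptors, Igf1r (-0.80 ± 0.08) and Igf2r (-0.81 ± 0.09). Igfbp2 rose 9.47-fold (3.24 ± 0.14, adjusted p = 1.1e-16) from a quiescent-like level that overlapped that of macrophage-like cells (5.59 to 14.3 CPM), and Igfbp6 rose by 1.10 ± 0.18 (adjusted p = 6.2e-06). Igfbp3, Igfbp4, Igfbp5 and Igfbp7 fell too, from -0.46 ± 0.10 in Igfbp7 to -1.15 ± 0.24 in Igfbp5. The median over the 10 members was -0.81, and over all genes tested -0.03. The 8 falling genes were lower in cycling-like than in quiescent-like cells in 4 of 4 libraries.

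From quiescent-like to committed-like cells, 7 members fell and 1 rose (background 62.7% called, 31.3% higher and 31.5% lower; median -0.39 over the members, -0.01 over all genes). Igfbp5 fell 6.08-fold (-2.60 ± 0.25, adjusted p = 6.4e-10), to a committed-like level that overlapped that of macrophage-like cells (131 to 319 CPM), and Igfbp7 fell 5.56-fold (-2.47 ± 0.11, adjusted p = 1.5e-16). The other falls were smaller: Igfbp3 -0.51 ± 0.14, Igf1r -0.49 ± 0.08, Igf2r -0.43 ± 0.09, Igfbp4 -0.36 ± 0.12 and Igf2 -0.35 ± 0.10. Igfbp2 rose by 1.96 ± 0.15. Igf1 differed by -0.13 ± 0.10 (95% interval -0.32 to 0.07, adjusted p = 0.26) and Igfbp6 by -0.04 ± 0.20 (95% interval -0.46 to 0.37, adjusted p = 0.87). Without Pax7Cre replicate 1, the calls of Igf2 (-0.26, adjusted p = 0.087) and Igfbp3 (-0.33, adjusted p = 0.066) were lost. When cells were instead gated by single transcripts, Pax7+ Myog- against Pax7- Myog+, Igfbp4 differed by 0.09 (adjusted p = 0.29) in place of its fall, and Igf1 by 0.19.

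The gates split single cells of the MP classes by whether a UMI of Pax7 or Myog was found after thinning each cell to 5000 UMIs. A cell counted as negative may therefore still hold the transcript. The levels below use all UMIs. Igf1 stood at 37.2, 61.0, 48.0 and 58.6 CPM in Pax7+ Myog- cells, at 43.0 to 66.7 CPM in Pax7- Myog+ cells and at 35.8, 80.3, 40.8 and 72.9 CPM in cells with both transcripts. Igfbp5 stood at 1318, 1441, 1613 and 1259 CPM in Pax7+ Myog- cells and at 353, 409, 467 and 292 CPM in Pax7- Myog+ cells, and cells with both lay between, at 1093, 973, 1091 and 954 CPM. Igfbp2 stood at 10.8 to 22.5 CPM, 22.9 to 50.6 CPM and 17.0 to 32.8 CPM in the same 3 gates. The 2095 cells with neither transcript found had Igf1 at 26.3 to 45.3 CPM, Igfbp5 at 751 to 984 CPM and Igfbp2 at 33.9 to 57.7 CPM. These gates do not separate cycling cells from the rest.

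From cycling-like to committed-like cells all 10 members passed the test, 6 rising and 4 falling (background 64.9% called, 32.4% higher and 32.6% lower). The ligands rose, Igf1 by 0.87 ± 0.10 (adjusted p = 8.1e-09) and Igf2 by 0.79 ± 0.10 (adjusted p = 1.5e-07). Igfbp3, Igfbp4, Igf1r and Igf2r rose by 0.31 ± 0.08 to 0.46 ± 0.14. Igfbp7 (-2.02 ± 0.11), Igfbp5 (-1.45 ± 0.24), Igfbp2 (-1.28 ± 0.12) and Igfbp6 (-1.14 ± 0.18) fell. These fold changes use library sizes scaled by the trimmed mean of M values, and the levels printed above do not. Markers of fibroblasts moved with the states: the 14 genes of that list summed to 1688 to 2102 CPM in quiescent-like, 1230 to 1362 in cycling-like and 338 to 405 in committed-like sums, with Kera at 0 in each, against 20699.8 to 43766 in the fibroblast and tenocyte-like cells. The list holds Dpt, which was also among the leading genes of the quiescent-like cluster at Leiden resolution 0.3. The part of these markers in the falls of Igfbp4 and Igfbp7 was not tested. The 11 markers of the mural list hold genes such as Acta2 that myogenic cells also express. They summed to 720 to 821 CPM in quiescent-like and 3405 to 4615 CPM in committed-like sums. Their part in the fall of Igfbp7 was not tested either.

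**Figure D2:**
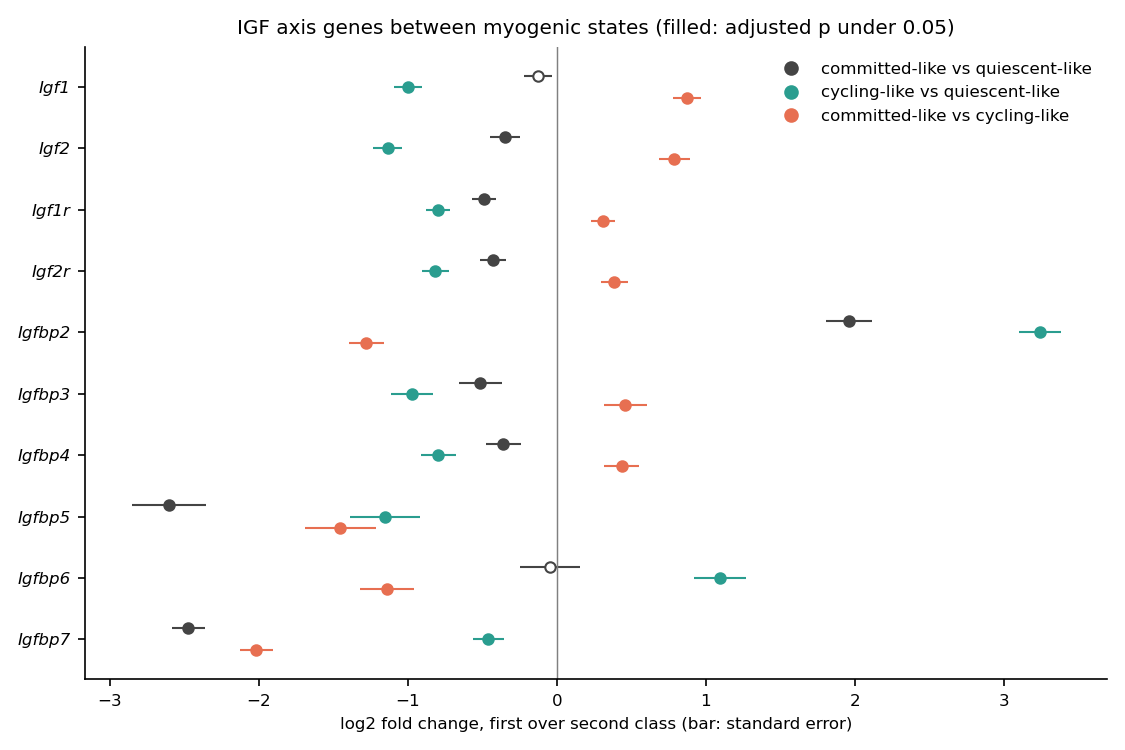
Log2 fold change of each member between myogenic states, with the standard error as a bar, from edgeR's quasi-likelihood test on sums per library and class (filled points, adjusted p under 0.05). Igfbp2 rose 3.24 from quiescent-like to cycling-like cells, while Igfbp5 and Igfbp7 were lowest in committed-like cells.

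The committed-like class was not uniform, and the ligands parted within it. It was made of an early cluster of 1043 cells led by Myog and Cdkn1c and a late cluster of 346 cells led by the embryonic and neonatal myosins Myh3 and Myh8. The early cluster held Igf1 at 71.4, 85.6, 67.6 and 62.3 CPM and the late cluster at 14.3, 9.34, 13.8 and 20.3. Igf2 went the other way, from 16.2, 16.0, 21.7 and 12.8 CPM to 32.1, 43.0, 64.0 and 26.0, and was higher in the late cluster in 4 of 4 libraries. In a comparison of these clusters added after their levels were seen, Igf1 fell 3.93-fold (-1.98 ± 0.16, adjusted p = 5.0e-12) and Igf2 rose 2.98-fold (1.58 ± 0.15, adjusted p = 1.6e-10). The late level of Igf1 overlapped that of mural-like cells, 4.0 to 13.4 CPM.

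Igfbp3, Igfbp4, Igfbp5 and Igfbp7 fell as well. Igfbp3 went from 89.1, 160.4, 147 and 142 to 8.91, 9.91, 27.7 and 13.1 CPM (-2.84 ± 0.21, adjusted p = 8.7e-13), and the late level lay below the range of macrophage-like cells (17.5 to 38.1 CPM) in 3 of 4 libraries and within it in the other. Igfbp4 went from 229, 221, 216 and 182 to 76.6, 32.3, 55.8 and 79.9 CPM (-1.49 ± 0.12). Igfbp5 went from 286, 357, 439.5 and 312 to 87.7, 55.8, 82.2 and 42.4 CPM (-2.05 ± 0.11, adjusted p = 6.0e-16), below its level in macrophage-like cells, 131 to 319 CPM. In all, 6 members fell and 2 rose between the clusters (background 56.7% called, 27.3% higher and 29.4% lower), Igfbp6 rising by 1.55 ± 0.20. Its levels were low in both clusters, 6.18, 3.70, 4.47 and 9.07 CPM in the early and 16.1, 10.2, 12.9 and 16.7 CPM in the late one, beside 2.28 to 12.1 CPM in macrophage-like cells. Igf2r (-0.02 ± 0.07, 95% interval -0.15 to 0.12) and Igfbp2 (0.05 ± 0.25, 95% interval -0.46 to 0.56) did not pass the test. By their levels in the early cluster, Igf1 (62.3 to 85.6 CPM) and Igfbp4 (182 to 229 CPM) overlapped the range of quiescent-like cells.

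An unnamed cluster of 1962 cells, led by Spp1, Fn1 and Tagln and found in all 4 libraries, had Igfbp5 near the quiescent-like level but little Igf2. Its Igf2 stood at 9.84, 6.51, 14.1 and 5.96 CPM, a log2 difference of -1.99 ± 0.12 from the 2 quiescent-like clusters (adjusted p = 3.0e-14). Its Igfbp5 stood at 1789, 2127, 2339.8 and 1665 CPM and differed from them by 0.15 ± 0.08 (95% interval -0.02 to 0.32, adjusted p = 0.14). Igfbp2 (2.52 ± 0.20), Igfbp6 (1.68 ± 0.12) and Igfbp7 (0.70 ± 0.09) were higher, and Igf1r (-0.65 ± 0.06) and Igf2r (-0.61 ± 0.05) lower, in all 3 members higher and 3 lower (background 49% called, 24.5% in each direction). Igf1 was at 58.9, 88.4, 53.8 and 56.2 CPM and differed by -0.06 ± 0.10 (95% interval -0.25 to 0.14). This comparison and the next were likewise added after the levels were seen.

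Between the 2 quiescent-like clusters the differences were smaller. The cluster led by Nppc and Edn3 (992 cells) had more Igfbp5 than the one led by Iigp1 and Gbp2 (1244 cells), at 2122, 1955, 2267 and 1775 against 1543, 1524, 1734 and 1317 CPM (0.42 ± 0.10, adjusted p = 0.002). Igf1 (0.38 ± 0.12, adjusted p = 0.022) and Igfbp3 (0.46 ± 0.15, adjusted p = 0.027) were higher as well (3 members called, all higher, background 21.6% called, 9.34% higher and 12.3% lower). Leaving out miR-501KO replicate 2 ended the calls of Igf1 (adjusted p = 0.21) and Igfbp3 (adjusted p = 0.16). Leaving out Pax7Cre replicate 1 (adjusted p = 0.11) or miR-501KO replicate 1 (0.055) also ended that of Igf1, and leaving out Pax7Cre replicate 2 that of Igfbp3 (0.083). Without the library as a term none of the 3 passed. Igfbp5 kept its call whichever library was left out.

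**Figure D3:**
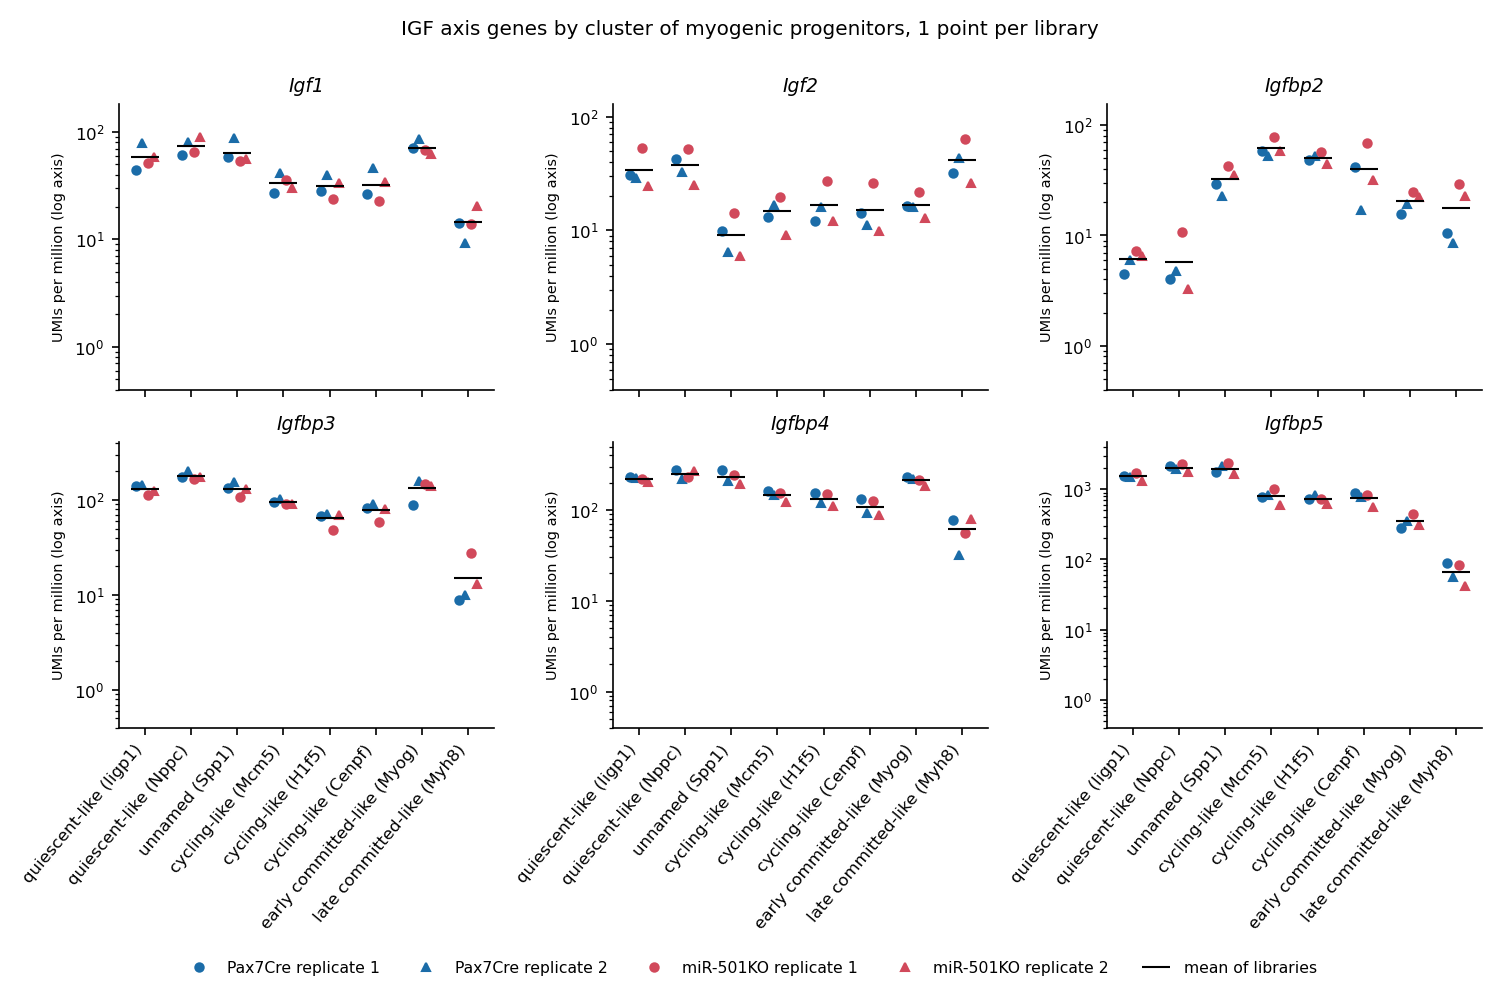
Levels of 6 members (CPM, log axis) in 8 clusters of myogenic cells, 1 point per library and a bar at the mean of the 4 libraries, with the gene that names each cluster in brackets. Igf1, Igfbp3, Igfbp4 and Igfbp5 were lower and Igf2 higher in the late than in the early committed-like cluster, and Igf2 was lowest in the cluster led by Spp1.

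In the 3 cycling-like clusters shared by all libraries, Igfbp2 was higher in the first described here than in the last in 4 of 4 libraries. Igfbp2 stood at 58.6, 52.2, 77.5 and 58.8 CPM in the cluster led by replication genes such as Mcm5, at 48.1, 53.1, 57.7 and 44.5 CPM in the one led by histone genes such as H1f5, and at 42.1, 17.1, 68.7 and 31.8 CPM in the one led by mitotic genes such as Cenpf. Igfbp5 stood at 786, 844, 1013 and 591 CPM, 737, 837, 736 and 627 CPM and 877, 785, 834 and 557 CPM in the same order, and Igf1 at 27.0 to 41.9 CPM, 23.8 to 40.2 CPM and 22.6 to 46.1 CPM. These differences were not tested.

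The share of cells with a UMI was taken for each gene. For genes at low levels this share largely follows the level, so it does not show whether a gene is confined to some cells. Cells were thinned to 5000 UMIs each, because median depth ran from 7797 to 49902 UMIs over classes and libraries. Macrophage-like cells served as a measure of stray RNA for genes that macrophages should lack. Igf2 was found in 10.8% to 20.5% of quiescent-like cells in the 4 libraries (37.6% to 62.1% without thinning), against 0% to 1.82% of macrophage-like cells. Igfbp5 was found in 88.3% to 92.3% of quiescent-like, 73.9% to 84.5% of cycling-like and 37.0% to 41.9% of committed-like cells, and in 16.0% to 30.4% of macrophage-like cells, a share in cells that should lack the gene, at a median of 16915 to 20824 UMIs per cell in macrophage-like and 21367 to 26714 in quiescent-like cells. Igfbp2 was found in 10.7% to 26.8% of cycling-like cells and in 1.23% to 3.25% of quiescent-like cells, which is no more than the 0% to 5.06% of macrophage-like cells. Igfbp6 in committed-like cells (1.54% to 4.63%) overlapped the macrophage-like share (1.82% to 3.80%) in the same way, and both were read as background.

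Igf1 was found in 43.0% to 64.0% of macrophage-like cells and 38.1% to 77.8% of fibroblast and tenocyte-like cells. In quiescent-like cells the share was 19.3% to 26.4%, and in mural-like cells 1.18% to 10.0%. In a single library the share was 54.5% (95% Wilson interval 45.2% to 63.5%) in the macrophage-like cells of Pax7Cre replicate 1 and 19.3% (95% Wilson interval 16.5% to 22.4%) in its quiescent-like cells, intervals that cover counting error only. Few thinned cells held both ligands: in quiescent-like cells 2.43% to 5.12% had a UMI of each, where the product of the separate shares was 2.83% to 4.07%. Thinning lowers such shares, and the share with both ligands was not computed without it. Igfbp7 was found in every thinned mural-like cell of all 4 libraries.

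Other genes of the pathway were taken from a list of 46, of which 41 passed the filter; Igfbp1, Igfbpl1, Igfals, Pappa2 and Igf2bp1 did not. These genes, unlike the 10 members, could enter the clustering, so their differences between classes are descriptive. From quiescent-like to committed-like cells 14 of the 41 rose and 15 fell, where 31.3% of all genes rose and 31.5% fell. From quiescent-like to cycling-like cells 4 rose and 23 fell, where 29.1% of all genes rose and 30.8% fell. From cycling-like to committed-like cells 18 rose and 8 fell, where 32.4% of all genes rose and 32.6% fell. Among the 3 MP classes, the enzymes Pappa, Htra3 and Htra1 were highest in quiescent-like cells. Pappa, the protease that cleaves IGFBP4, had 34 to 55 UMIs per library in quiescent-like cells (2.48 to 3.49 CPM), 8 to 30 in cycling-like cells and 0 to 2 in committed-like cells. Htra3, a secreted serine protease, stood at 261 to 318 CPM in quiescent-like, 48.6 to 60.5 in cycling-like and 38.9 to 49.5 in committed-like cells. Htra1, a related protease reported to cleave binding proteins, stood at 21.4 to 26.6 CPM in quiescent-like and 1.27 to 4.12 CPM in committed-like cells (-3.12 ± 0.22, adjusted p = 1.1e-12). Stc1, which encodes a stanniocalcin that inhibits PAPP-A, fell from cycling-like (2.07 to 4.01 CPM) to committed-like cells (0.61 to 1.08 CPM; -1.88 ± 0.30). Stc2 was higher in committed-like (4.62 to 8.22 CPM) than in quiescent-like cells (1.76 to 4.24 CPM; 1.02 ± 0.26). Both genes were at low levels.

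From quiescent-like to committed-like cells the pathway genes that rose most were the ubiquitin ligases of muscle atrophy, which Akt signalling is known to restrain. Trim63, encoding MuRF1, stood at 49.6 to 83.2 CPM in committed-like cells and 0.40 to 0.63 in quiescent-like cells (7.09 ± 0.17). Fbxo32, encoding atrogin-1, stood at 72.9 to 92.8 and 30.3 to 50.5 CPM (1.19 ± 0.09). Igf2bp2, which encodes an RNA-binding protein of the Igf2 transcript, stood at 27.5 to 47.2 CPM in quiescent-like and 4.08 to 7.04 in committed-like cells (-2.56 ± 0.18). The insulin receptor gene Insr rose from cycling-like (5.42 to 7.76 CPM) to committed-like cells (17.0 to 26.2 CPM; 1.80 ± 0.11), as did Akt2 (1.11 ± 0.07). In cycling-like cells Rheb (0.54 ± 0.07), Akt1 (0.49 ± 0.07) and Eif4ebp1 (0.49 ± 0.14) were higher than in quiescent-like cells, and Deptor, an inhibitor of mTOR, was lower (-1.42 ± 0.09). Pik3cb, which encodes a catalytic subunit of PI3-kinase, was higher than in quiescent-like cells in both other classes, by 1.14 ± 0.20 (cycling-like, 2.63 to 4.46 CPM) and 1.06 ± 0.22 (committed-like, 2.31 to 3.33 CPM).

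The genes whose level was most like that of a member were found over 25 sums of library and class, by Pearson's r of log2(CPM + 1). The sums share libraries and classes, so the values are descriptions. Igfbp7 was most like Nid1 (r = 0.97), Lhfp (r = 0.97) and Trpc1 (r = 0.97). Igf2 was most like Arhgap28 (r = 0.93), Coro6 (r = 0.91) and Zfp568 (r = 0.91), Igf1 like Orai2 (r = 0.93), Fau (r = 0.91) and Vsir (r = 0.91) and Igfbp3 like Tanc2 (r = 0.94), Pde4d (r = 0.94) and Gm42640 (r = 0.93). Igfbp2 was most like Chchd1 (r = 0.93), Denr (r = 0.92) and Dnajc2 (r = 0.91), Igf2r like Mast4 (r = 0.95), Cavin2 (r = 0.94) and Rgma (r = 0.93) and Igf1r like Ppp1r9a (r = 0.93), Ankrd28 (r = 0.92) and Epb41l5 (r = 0.92). The lowest leading values were those of Igfbp5, Igfbp4 and Igfbp6, whose first genes were Arcn1 (r = 0.88), Mrc2 (r = 0.85) and Ddah1 (r = 0.80). With a larger constant added in place of 1, Mrc2 (r = 0.79) left the leading 3 genes of Igfbp4. Denr, Trpc1, Coro6, Zfp568 and Vsir left those of their members too, and the other genes named here stayed.

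Between the genotypes no member passed the test, in all cells or in any MP class. The tests called 0 of 15725 genes in all cells (0% of those tested; 440 at an unadjusted p under 0.05; 13 by DESeq2), 10 of 12524 in quiescent-like cells (0.0798%), 0 of 13393 in cycling-like cells (0%; 320 unadjusted; 2 by DESeq2) and 0 of 12212 in committed-like cells (0%; 286 unadjusted; 0 by DESeq2). With the run as a replicate block, which pairs the libraries of each experiment, 39 genes each were called in the quiescent-like and the cycling-like sums and 1 in the committed-like sums, and no member was among them. Within runs, 5 of 10 members had the same sign in both runs in all cells and in cycling-like cells, and 3 of 10 in the other 2 classes. The share over all genes was not computed, so these counts are not a result about the members. In sums over all cells, fewer cells of a type and less RNA per cell cannot be told apart.

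The 2 members farthest from 0 against their error were Igfbp2 and Igf1 in committed-like cells. Igfbp2 stood there at 14.0 and 16.3 in the Pax7Cre libraries and 26.7 and 22.6 in the miR-501KO libraries (CPM). The log2 fold change was 0.68 ± 0.15 (95% interval 0.33 to 1.03; edgeR adjusted p = 1.0). Igf1 stood at 53.8 and 64.9 in the Pax7Cre libraries and 44.4 and 49.9 in the miR-501KO libraries. Its log2 fold change was -0.35 ± 0.14 (95% interval -0.68 to -0.03, edgeR adjusted p = 1.0). Within runs the log2 ratio of miR-501KO to Pax7Cre was 0.93 in run 1 and 0.48 in run 2 for Igfbp2, and -0.28 in run 1 and -0.38 in run 2 for Igf1. The difference of these effects from the effects in quiescent-like cells was 0.38 ± 0.24 for Igfbp2 and -0.33 ± 0.17 for Igf1, both with an adjusted p of 1.0 in the interaction term. Igfbp4 in committed-like cells stood at 182 and 169 in the Pax7Cre libraries and 147 and 152 in the miR-501KO libraries (-0.26 ± 0.13, 95% interval -0.58 to 0.05), with -0.31 in run 1 and -0.16 in run 2 within runs. Over all cells Igfbp6 stood at 19.99 and 16.2 in the Pax7Cre libraries and 27.5 and 21.5 in the miR-501KO libraries (0.41 ± 0.17, 95% interval -0.00063 to 0.83) and Igfbp2 at 28.9 and 24.9 in the Pax7Cre libraries and 41.8 and 29.2 in the miR-501KO libraries (0.38 ± 0.19, 95% interval -0.07 to 0.84). None of the 3 passed the test.

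Igf2 went in opposite directions in the 2 runs. Its log2 ratio of miR-501KO to Pax7Cre was 0.58 in run 1 and -0.28 in run 2 in quiescent-like cells. It was 0.92 in run 1 and -0.49 in run 2 in cycling-like cells, and 0.92 in run 1 and -0.49 in run 2 in committed-like cells. Each run holds 1 library per genotype, so no run gives a test of its own. The fitted genotype difference of Igf2 in quiescent-like cells was 0.15 ± 0.20 (95% interval -0.27 to 0.57); without miR-501KO replicate 2 it became 0.54 (adjusted p = 0.021), the one setting in which a member was called between genotypes in this class. In the sums over all cells, Igf2 had 16.0 and 17.1 in the Pax7Cre libraries and 24.3 and 12.5 in the miR-501KO libraries (CPM), and with its single-library clusters removed miR-501KO replicate 1 stood at 28.0.

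Igfbp5, the member with the 3p seed letters shown above, did not pass the test in any class. In committed-like cells it stood at 224 and 275 in the Pax7Cre libraries and 286 and 233 in the miR-501KO libraries (CPM), and in quiescent-like cells at 1760.2 and 1698 in the Pax7Cre libraries and 1908 and 1593 in the miR-501KO libraries. The log2 fold change was 0.03 ± 0.16 in committed-like cells (95% interval -0.34 to 0.39), -0.06 ± 0.16 in quiescent-like cells (-0.39 to 0.28) and -0.21 ± 0.15 in cycling-like cells (-0.53 to 0.12). Igf1, with the letters of the 5p arm that the study describes as not expressed in activated MPs, differed by -0.02 ± 0.18 in quiescent-like cells (-0.39 to 0.35). The receptors differed by -0.02 ± 0.11 (Igf1r, -0.28 to 0.24) and -0.05 ± 0.13 (Igf2r, -0.37 to 0.26) over all cells. Without single-library clusters these became 0.058 and 0.0016. In quiescent-like cells Igf1r stood at 85.0 and 102 CPM in the Pax7Cre and 117 and 104 CPM in the miR-501KO libraries. Igf2r stood there at 183 and 214 CPM and at 261 and 179 CPM, and neither receptor passed the test. The intervals show how large a difference could have gone undetected with 2 libraries a group.

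**Figure D4:**
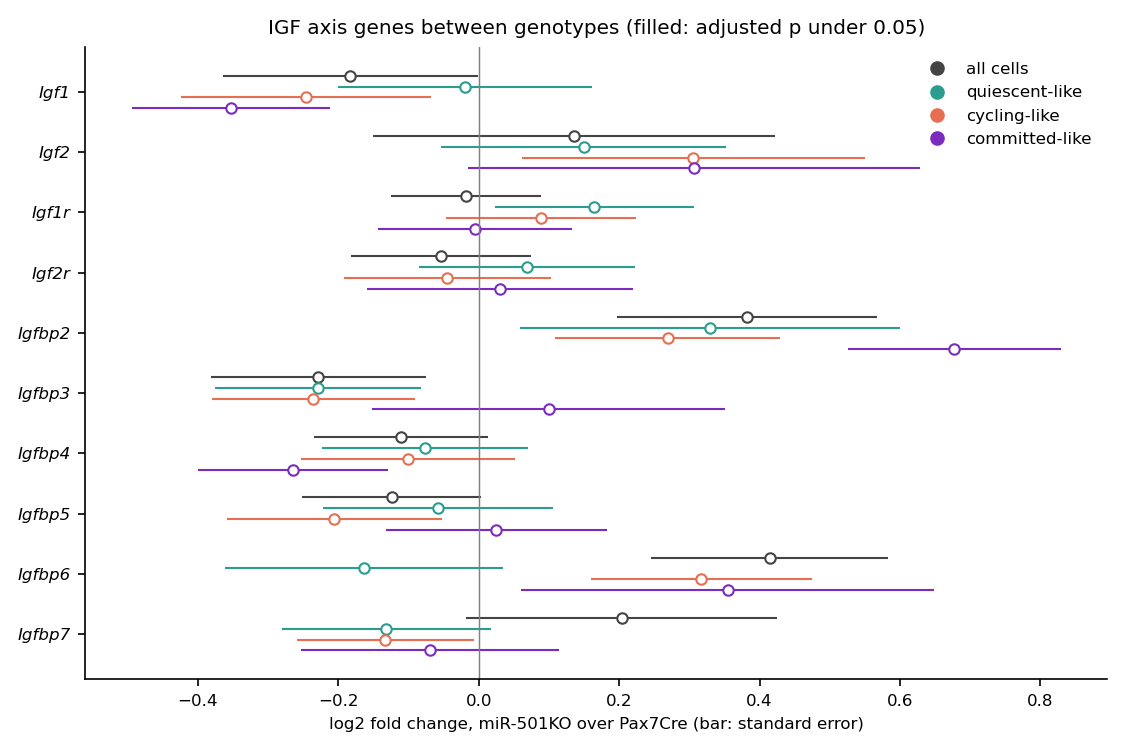
Log2 fold change of each member between miR-501KO and Pax7Cre libraries in all cells and in 3 classes of MPs, with the standard error as a bar, from edgeR's quasi-likelihood test. All points are open, since none had an adjusted p under 0.05, and the value farthest from 0 was 0.68 for Igfbp2 in committed-like cells.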

How the data were processed

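The deposited values are UMI counts per gene and cell barcode, which the authors made with Cell Ranger (6.0.2 per the file headers) on GRCm39, with Seurat named in the submitters' processing notes; the matrices held 16519 barcodes and 73665012 to 117527749 UMIs per library. Barcodes under 5000 UMIs or under 1000 genes were dropped. Cells were clustered (scanpy 1.11.5, 2000 variable genes without the 10 members, 30 components, 15 neighbours, Leiden resolution 0.5). A cluster was named when at least 3 markers of a list were raised 1.5-fold and detected in 10% of its cells. It stayed unnamed with under 20 cells, with markers of another lineage raised in a large enough share as well, or with another class ahead among its leading genes. Low depth without a leading marker also left a cluster unnamed. Scrublet marked only 20 cells (0.191%), so its calls were not used and doublets were kept. UMIs were summed per library and class (at least 20 cells) and tested with edgeR 4.0.16 (quasi-likelihood, filterByExpr, TMM, two-sided, Benjamini-Hochberg over all genes tested, threshold 0.05) in R 4.3.3, with the library as a term between classes and none between genotypes. A positive log2 fold change is higher in the first-named class or in miR-501KO. Levels are CPM without TMM. Named were the 10 members, at most 4 pathway genes per direction and comparison, called and moved alike in every library, and the 3 genes most like each member.

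The members and gene lists were chosen with earlier results of these data known. Scripts were tested on simulated data. Counts of same-group libraries were further apart than sampling gives, with a chi-square of 11.7 to 70.2 times its degrees of freedom. The labels pair libraries by run. Differences between the runs correlated across genes between the genotypes at 0.17 over all cells, and at -0.03 (quiescent-like), -0.04 (cycling-like) and -0.19 (committed-like) by class. Alternatives were other scaling (RLE), DESeq2 1.42.0, no filter, other cell filters and resolutions, single-library clusters removed, each library left out, the run as a block, and gates on Pax7 and Myog. Intervals of shares cover counting error only. Sequences came from RefSeq tables of GRCm38.p6 and 3′UTRs from GENCODE M21 on that build. The files' build differs, so no coordinate was carried over. Adjacent or antisense genes that overlap a member were not separated here.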

Additional observations from a re-analysis of the deposited data

Results flagged for a closer look

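Among 70 sets of 4 library values (10 members in 7 classes), 6 held 1 library far from the other 3 by Dixon's test, which chance alone gives in about 1 of 20. Igfbp2 in cycling-like cells was 69.6 CPM in miR-501KO replicate 1, against 44.1 to 48.3 CPM in the others, and 65.6 CPM without the cluster of 53 cells that this library held nearly alone. Igfbp5 in cycling-like cells was 602 CPM in miR-501KO replicate 2, against 791 to 826 CPM. In fibroblast and tenocyte-like cells, Igfbp2 was 19.7 CPM in miR-501KO replicate 2 (97 cells), against 3.98 to 6.46 CPM, and Igfbp3 was 214 CPM in miR-501KO replicate 1 (18 cells), against 56.4 to 69.3 CPM. In mural-like cells, Pax7Cre replicate 2 (22 cells) had Igfbp3 at 22.4 CPM, against 3.50 to 5.80 CPM, and Igfbp6 at 6.72 CPM, against 1.0 to 1.61 CPM. These classes held as few as 11 cells in a library, and the causes were not tested.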

How the results depend on the processing

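Of 202 counts of members called under an alternative, 199 stayed within 1.5 times the main count, as did 172 of 202 counts of genes called. Of 1320 log2 fold changes of members between classes or clusters, 1262 kept their direction and side of the threshold, 19 lost and 17 gained a call, and 22 changed sign. Between genotypes 16 of 224 changed sign. These cover every member in all cells, Igf1, Igf2, Igfbp2 and Igfbp5 in committed-like cells, and Igf2 alone in quiescent-like and cycling-like cells. Other members were not followed by class between genotypes, and the changes of sign and ranges listed below have the same scope. With the run as a replicate block no member was called between genotypes, and the samples are paired by run. Leaving out miR-501KO replicate 2 leaves no fibroblast and tenocyte-like sum of at least 20 cells, and the cluster comparisons were not run at other resolutions or with a minimum of 2000 UMIs. Shares fell with thinning by design. The causes of the changes listed next were not tested.

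By DESeq2, the tests called 13 genes for genotypes (all cells), 3 genes for genotypes (quiescent-like), 2 genes for genotypes (cycling-like), and the sign turned to Igf2r 0.032 for late minus early committed cluster (log2). Without a filter on low counts, the tests called 75 genes for genotypes (quiescent-like), 54 genes for genotypes (cycling-like), 54 genes for genotypes (committed-like), 3 genes for the interaction. With at most 10% mitochondrial UMIs, the tests called 1 gene for genotypes (quiescent-like). With a minimum of 2000 UMIs, the tests called 1 gene for genotypes (quiescent-like), 2 genes for genotypes (cycling-like), 5082 genes for fibroblast and tenocyte-like against MP classes, and the sign turned to Igfbp6 0.062 for committed-like minus quiescent-like, Igfbp2 -0.34 for fibroblast and tenocyte-like against MP classes (log2). At Leiden resolution 1.0, the tests called 0 genes for genotypes (quiescent-like), and the sign turned to Igfbp5 -0.016 for genotypes (committed-like), Igfbp2 -0.011 for fibroblast and tenocyte-like against MP classes, Igfbp6 0.0035 for Schwann-like against MP classes (log2). Without the highest 5% of Scrublet scores, the tests called 0 genes for genotypes (quiescent-like), and the sign turned to Igfbp5 -0.020 for genotypes (committed-like), Igfbp6 0.065 for committed-like minus quiescent-like, Igfbp6 0.20 for Schwann-like against MP classes (log2). With the run as a replicate block, the tests called 39 genes for genotypes (quiescent-like), 39 genes for genotypes (cycling-like), 1 gene for genotypes (committed-like). With sums of at least 10 cells, the tests called 6519 genes for fibroblast and tenocyte-like against MP classes, and the sign turned to Igfbp2 -0.77 for fibroblast and tenocyte-like against MP classes (log2). With no replicate block (no library term), the tests called 1738 genes for Nppc minus Iigp1 cluster, 0 members for Nppc minus Iigp1 cluster, and the sign turned to Igf2r -0.053 for fibroblast and tenocyte-like against MP classes (log2). Without single-library clusters, the sign turned to Igf1r 0.058 for genotypes (all cells), Igf2r 0.0016 for genotypes (all cells) (log2). With the Pax7 and Myog gates, the sign turned to Igf1 0.19 for committed-like minus quiescent-like, Igfbp4 0.086 for committed-like minus quiescent-like (log2). With RLE size factors, the sign turned to Igf2r 0.028 for late minus early committed cluster (log2). Leaving out each library in turn called 0 to 3 genes for genotypes (all cells), 9 to 246 genes for genotypes (quiescent-like), 0 to 1 members for genotypes (quiescent-like), 1 to 45 genes for genotypes (cycling-like), 0 to 81 genes for genotypes (committed-like), 0 to 1 genes for the interaction, 1 to 2 members for Nppc minus Iigp1 cluster. The log2 fold changes then ran over Igfbp7 -0.12 to 0.47 for genotypes (all cells), Igf1r -0.15 to 0.11 for genotypes (all cells), Igf2 -0.42 to 0.53 for genotypes (all cells), Igf1 -0.43 to 0.093 for genotypes (all cells), Igf2r -0.22 to 0.090 for genotypes (all cells), Igf2 -0.41 to 0.54 for genotypes (quiescent-like), Igf2 -0.35 to 0.77 for genotypes (cycling-like), Igfbp5 -0.10 to 0.14 for genotypes (committed-like), Igf2 -0.41 to 0.78 for genotypes (committed-like), Igfbp6 -0.18 to 0.14 for committed-like minus quiescent-like, Igfbp4 -0.14 to 0.032 for macrophage-like against MP classes, Igfbp6 -0.89 to 0.21 for Schwann-like against MP classes, Igfbp2 -0.20 to 0.19 for late minus early committed cluster, Igf2r -0.13 to 0.051 for late minus early committed cluster, Igf1 -0.13 to 0.075 for Spp1 minus quiescent-like clusters, Igfbp4 -0.099 to 0.060 for Spp1 minus quiescent-like clusters, Igfbp2 -0.50 to 0.086 for Nppc minus Iigp1 cluster. The highest counts of genes between genotypes came without miR-501KO replicate 2 in quiescent-like, without Pax7Cre replicate 2 in cycling-like and all cells, and without Pax7Cre replicate 1 in committed-like cells.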

Other observations

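The clusters that carried no name held members of the axis as well. The cluster of 659 cells that only miR-501KO replicate 1 held, led by Mylpf, Gzma and Ckm and with raised markers of both myofibres and macrophages, had Igf1r at 13.02 CPM and Igfbp7 at 411 CPM. Its Igfbp5 stood at 370.3 CPM and its Igf1 at 24.6 CPM. In the small cycling-like cluster of 53 cells from the same library, Igfbp2 stood at 222 CPM. Both are values of 1 library, with no replicate.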
